A study of Zea mays with 157 samples.

Results

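Neighbouring maize genes known as carbonic anhydrase genes, and the circular RNAs made from them, are described here across tissues. The genes were chosen by identifier as Zm00001d044099, Zm00001d044096 and Zm00001d044095, which makes 3 of the 44146 B73 gene identifiers in the deposited list. Every circRNA with one of them as host was taken, 32 of the 127209 listed circRNAs and of the 80836 placed on the B73 genome. The files pair no identifier with a gene name, so the name carbonic anhydrase comes from outside the data. None of the 3 identifiers was in the reference gene table used here.

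Carbonic anhydrases are zinc enzymes that interconvert carbon dioxide and bicarbonate. In the mesophyll of C4 leaves such as those of maize, the bicarbonate they supply is the substrate of phosphoenolpyruvate carboxylase, the entry step of the carbon pump. A circRNA forms when a splice donor is joined to an upstream acceptor, and it is counted through reads that cross this back-splice junction, so that a gene can give a linear mRNA and several circRNAs from overlapping stretches.

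The study profiled untreated greenhouse plants of the inbred lines B73 and Mo17 and of the F1 hybrid of B73 with Mo17, with 1 mRNA and 1 circRNA library for each of 26 tissues per line. Each library was a pool of 3 replicate extractions, each from 5 to 10 plants, so spread between plants was not measured and all p-values rest on spread between tissues or leaf positions. The 11 leaf tissues were seedling leaves (stage V3), tip and base of the stage 2 leaf (V5), the ear leaf and the husk leaf, 9 tissues were shoot apical meristem (SAM), inflorescence, ear or tassel, and 6 were root, stem, internode, embryo or endosperm. At 4 leaf positions the labels carry a suffix L or N, whose meaning they do not give.

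None of the 3 genes had a Mo17 partner in the deposited list of paired features, and none of their circRNAs had a Mo17 position. Their values therefore come from B73 and F1, and Mo17 was not analysed here. The sources used here do not give the unit of the B73 and F1 mRNA values. They are given as scaled abundance, the deposited value divided by a factor per library, and levels are not ordered between genes because it is unknown whether the unit is per length. The circRNA values deposited by the authors are taken as RPM, a read count scaled to library size, from their size and steps, with the smallest value above 0 of a library between 0.0462 and 0.0984. Differences at a few such steps are not resolved at this depth.

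Markers were named by identifier from outside the files. The shoot meristem marker Zm00001d033859 did not exceed 0.359 scaled units in any leaf library and was at least 23.9 in every meristem and inflorescence library. All 4 endosperm identifiers were highest in the library labelled embryo in both lines, at 221 to 2491 scaled units in B73 and 153 to 3527 in F1, against 5.69 to 61.9 and 3.67 to 78.7 in the library labelled endosperm. The embryo and endosperm labels thus go against these markers in both lines, and both libraries are named below only by their labels. One library stood apart from the other leaves. In the F1 husk leaf, 4 of 6 unpaired genes of a C4 photosynthesis list had their lowest F1 to B73 ratio of any leaf tissue, with a median log2 ratio of -3.67 over the 6 and a range from -5.88 to 0.73. The remaining ones, Zm00001d052595 and Zm00001d004894, which were also chosen as green leaf markers, had their highest ratio there, at 0.73 and 0.67. It held 10288 circRNAs above 0, where the other F1 leaves held 4542 to 7579. Its mRNA was nevertheless most like the B73 husk leaf (Spearman 0.934 across genes). Results that rest on it are given with and without it.

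The mRNA of all 3 genes was higher in leaf. In B73 leaves Zm00001d044099 mRNA ranged from 96.1 to 3457 scaled units with a median of 1438, and in F1 leaves from 53.5 to 4042 with a median of 1587. In the 9 meristem and inflorescence libraries it stayed between 0.0793 and 0.734 in B73 and between 0.0711 and 0.936 in F1. The groups did not overlap in either line, and the share of all genes without such overlap was not counted. The log2 difference was 9.45 ± 0.47 (SE; 11 leaf and 9 other libraries; limma adjusted p = 2.77e-13) in B73 and 9.19 ± 0.66 (limma adjusted p = 1.11e-10) in F1, on the log2(value + 1) scale, which understates the fold of genes near 0 in 1 group.

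The pair of neighbouring genes followed the same division. Zm00001d044096 had a leaf range of 171 to 1312 in B73, median 619, and of 182 to 867 in F1, median 467. Its highest meristem or inflorescence value was 1.69 in B73 and 1.87 in F1, both in the SAM at stage V1. Zm00001d044095 ranged from 7.64 to 105 in B73 leaves, median 29.6, and from 8.16 to 50.9 in F1 leaves, median 21.3. It did not exceed 0.294 in any meristem or inflorescence library. Neither gene overlapped between the groups, a trait that was not counted over all genes.

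The log2 differences of Zm00001d044096 were 8.24 ± 0.30 in B73 (SE; limma adjusted p = 1.68e-15) and 8.0 ± 0.27 in F1 (limma adjusted p = 3.98e-16). Those of Zm00001d044095 were 4.50 ± 0.36 (limma adjusted p = 5.91e-10) and 4.38 ± 0.25 (limma adjusted p = 2.11e-12). All 3 genes were thus called higher in leaf in both lines, where 35.4% of the 23837 genes tested in B73 and 26.6% of the 41081 in F1 were. Genes were tested if at 1 or more in 3 libraries. Zm00001d044099 and Zm00001d044095 stayed below 1 in every meristem and inflorescence library, so they passed only through leaf libraries. Zm00001d044096 in F1 also needed its leaf libraries to pass. The direction of these calls thus follows largely from the filter. The median log2 difference over all genes tested was -0.06 in B73 and -0.43 in F1. Values as deposited moved these medians to -0.90 and -1.21 and the calls to 4624 higher and 14862 lower in B73 and 6079 and 28593 in F1, from 8440 and 9346 and from 10942 and 20144, and the 3 genes stayed higher in leaf under every scaling tried. Scaling on paired genes gave 14511 higher and 15847 lower in F1. In bulk tissue, fewer cells that express a gene and less RNA per cell cannot be told apart.

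**Figure D1:**
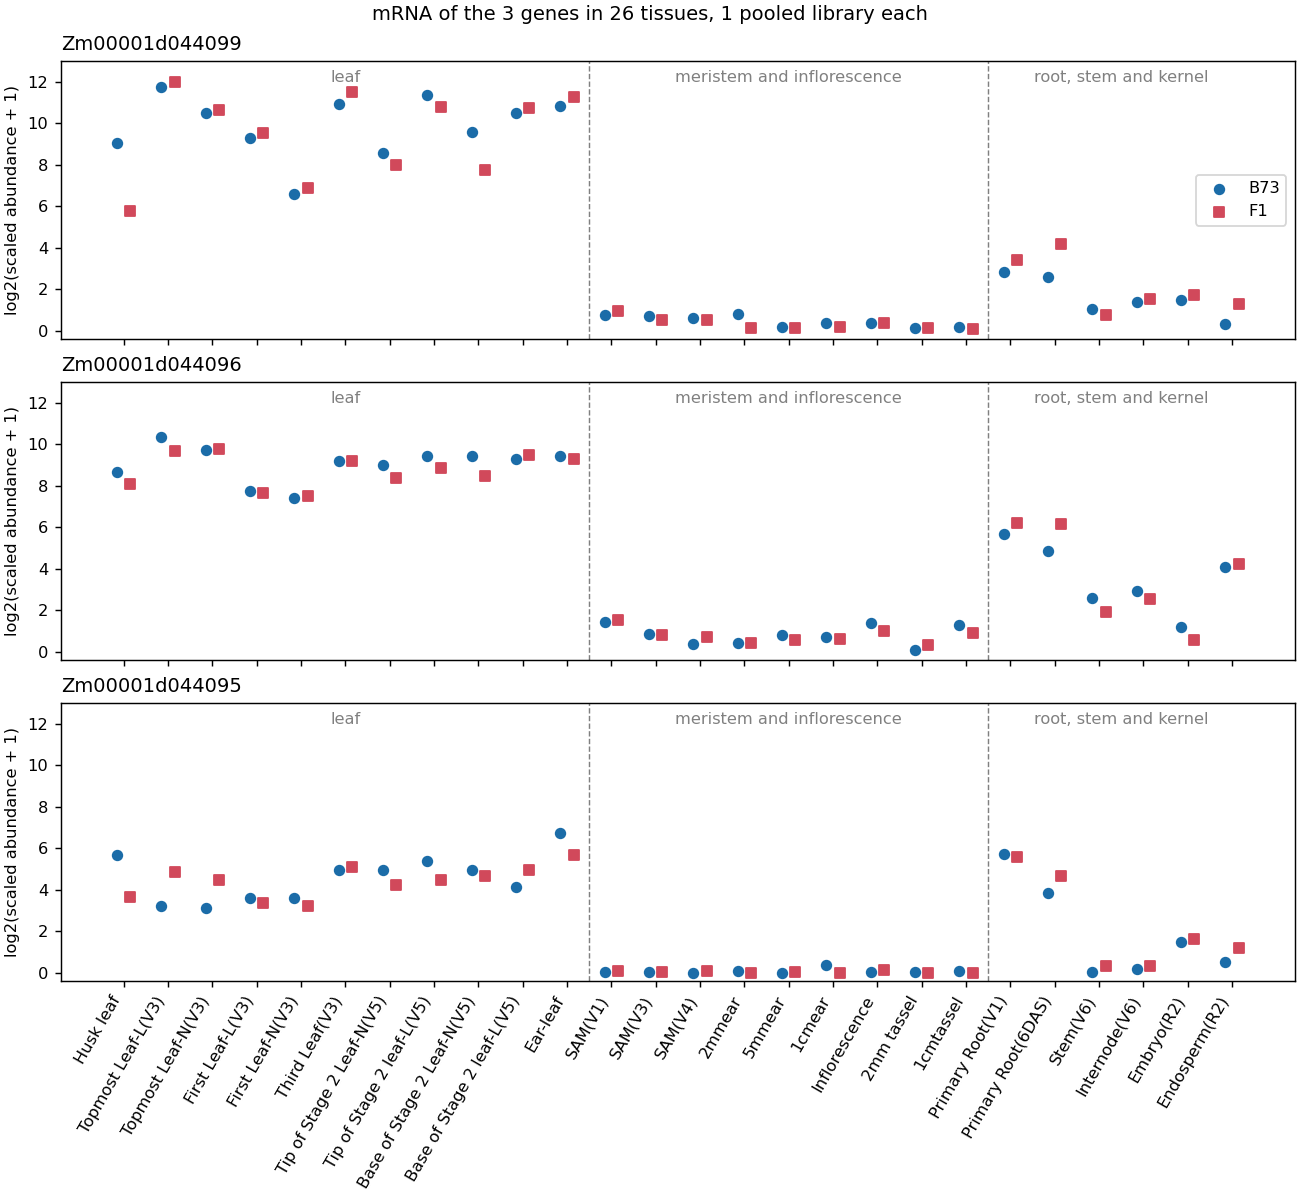
Scaled mRNA abundance of the 3 genes as log2(value + 1), with 1 point per tissue and line and each point 1 pooled library. All leaf points of Zm00001d044099 and Zm00001d044096 lie above every other tissue, while the roots of Zm00001d044095 lie among its leaves.

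Outside leaf and meristem the genes differed in order. The 11 leaf libraries held the 11 highest values of Zm00001d044099 and of Zm00001d044096 in each line. For Zm00001d044095 only 9 of its 11 highest libraries were leaves in each line, and both primary roots made up the rest. Root values of Zm00001d044095 were 51.8 at V1 and 13.2 at 6DAS in B73, and 46.4 and 24.7 in F1. The V1 root was second only to the ear leaf in both lines.

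Zm00001d044096 was also above its meristem values in roots, at 50.6 and 27.7 in B73 and 73.3 and 69.6 in F1. In the library labelled endosperm, whose label goes against its markers, it stood at 16.2 in B73 and 17.9 in F1, where Zm00001d044099 was at 0.262 and 1.45. Zm00001d044099 reached 6.02 in the B73 roots and 16.9 in the F1 roots at most. With 1 library per tissue, these neighbours in the order have no spread of their own, and no test was made between single tissues.

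Within leaves the topmost leaf with suffix L had the highest Zm00001d044099 value in both lines. The lowest B73 leaf was the first leaf with suffix N, and the lowest F1 leaf was the husk leaf. Zm00001d044095 went another way, with the ear leaf highest in both lines at 105 and 50.9. In B73 its lowest leaves were the topmost leaves, at 8.33 for L and 7.64 for N, which are the leaves where Zm00001d044096 was highest. F1 did not repeat this. There Zm00001d044096 was again highest in the topmost leaves, but Zm00001d044095 stood at 27.6 for L and 21.2 for N. Its lowest F1 leaves were the first leaves, at 9.42 for L and 8.16 for N.

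Across the 26 B73 libraries, Zm00001d044099 and Zm00001d044096 had a Spearman correlation of 0.896, and each was less like Zm00001d044095, at 0.781 and 0.785. Among 9119 genes with a mean of at least 10 scaled units, Zm00001d044096 ranked 43 in likeness to Zm00001d044099. The 5 nearest were Zm00001d052444 at 0.951, Zm00001d032230 at 0.938, Zm00001d040446 at 0.938, Zm00001d040163 at 0.936 and Zm00001d002350 at 0.935. For Zm00001d044096 they were Zm00001d018936 at 0.950, Zm00001d002350 at 0.943, Zm00001d029074 at 0.938, Zm00001d021310 at 0.938 and Zm00001d005950 at 0.937. For Zm00001d044095 they were Zm00001d025401 at 0.935, Zm00001d024839 at 0.925, Zm00001d016760 at 0.912, Zm00001d012900 at 0.906 and Zm00001d053394 at 0.903. All points share libraries and the leaf to meristem contrast, so these correlations are descriptions.

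A list of 8 C4 photosynthesis identifiers, taken from outside knowledge of the annotation and not named in the files, gave the pathway beside the members. All 8 were called higher in leaf in each line, with log2 differences from 6.03 to 11.03 in B73 and from 5.43 to 10.49 in F1. Of all genes tested, 35.4% in B73 and 26.6% in F1 were called so. Some of the 8 passed the filter only through leaf libraries, so the direction of those calls follows largely from the filter. In B73 Zm00001d046170 and Zm00001d048593 reached at most 0.660 and 0.467 in meristem and inflorescence libraries.

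The 3 genes lie on the minus strand of chromosome 3 (B73 RefGen_v4), and their circRNAs mark out 3 separate stretches. Those of Zm00001d044095 span positions 219031776 to 219034086, those of Zm00001d044096 positions 219038661 to 219043719, and those of Zm00001d044099 positions 219075897 to 219080855. The gaps between the stretches were 4574 and 32177 bp. No exon annotation of this build was used here, so the ends are not assigned to exons, introns or UTRs.

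The circRNAs were unevenly shared between the genes. Zm00001d044099 hosted 27, of which 24 were listed for B73, 18 for F1 and 15 for both. Zm00001d044096 hosted 3, with 2 listed for B73, 2 for F1 and 1 for both. Zm00001d044095 hosted 2, both listed for B73 and neither for F1. The median host had 3 circRNAs, and 334 of 13140 hosts had more than 27.

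The 27 circRNAs of Zm00001d044099 overlapped within 4959 bp, and their genomic spans ran from 243 to 3743 bp with a median of 1487 bp, against 1038 bp over the catalogue. They drew on few splice ends, with 10 upstream ends and 11 downstream ends among them. The outermost upstream end, at position 219080855, was used by 7 of the 27. These 7 carried 82.6% of the RPM of the gene in B73 leaves and 73.3% in F1 leaves.

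A single circRNA made up most of this. The 274-bp circRNA Zmcirc037607 (219080582 to 219080855) took 74.9% of the leaf RPM of its host in B73 and 63.3% in F1. The 2673-bp circRNA Zmcirc037602 (219077336 to 219080008), which begins and ends elsewhere, took 12% and 18.2%. The 897-bp circRNA Zmcirc037606 (219079959 to 219080855) took 5.86% and 8.59%, and the 2018-bp circRNA Zmcirc047121 (219077113 to 219079130) took 1.76% and 4.62%. The shortest, of 243 bp, and the longest, of 3743 bp, took 0.249% and 0.638% in B73.

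**Figure D2:**
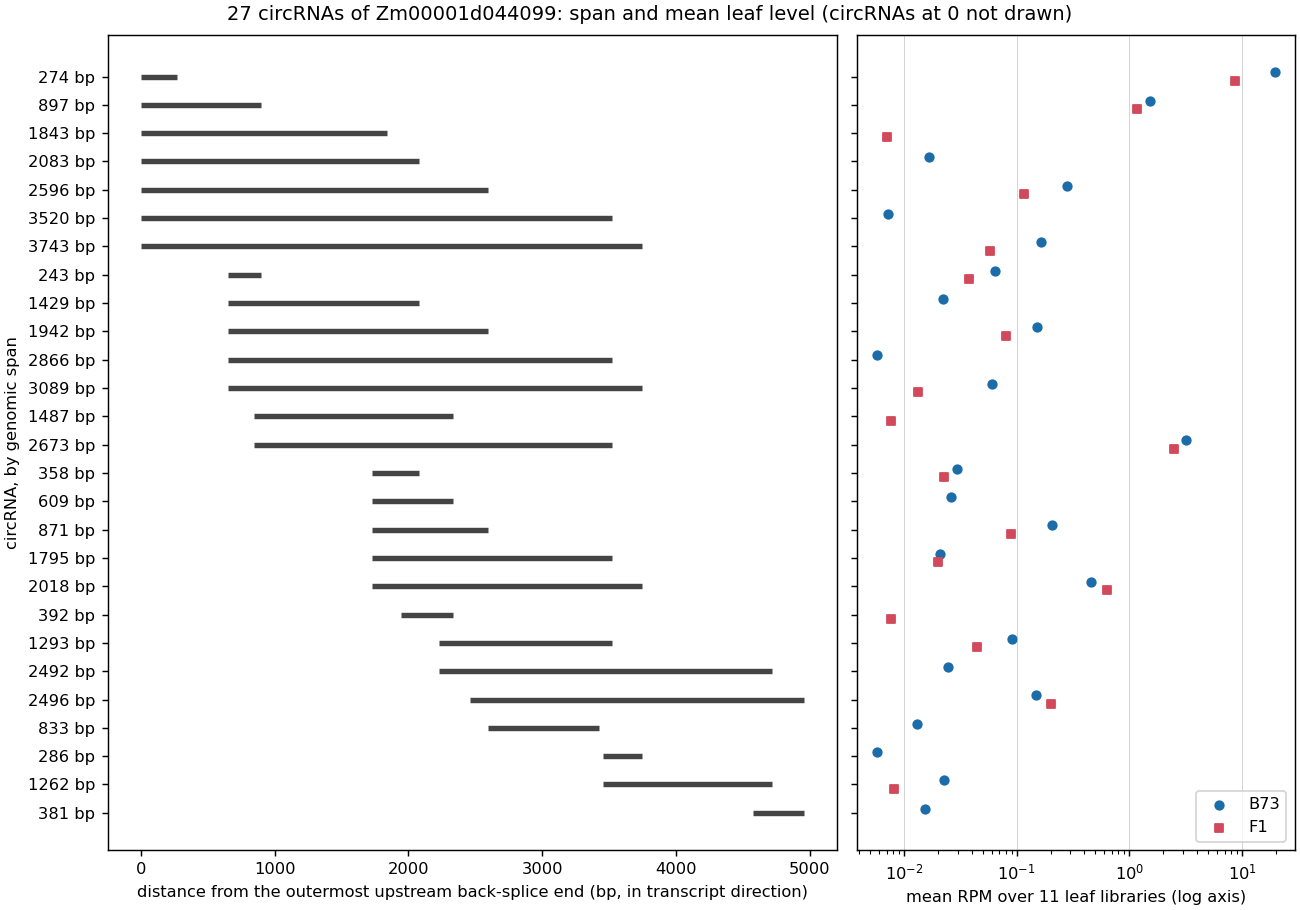
The left panel draws each of the 27 circRNAs of Zm00001d044099 from its upstream to its downstream end, in bp from the outermost upstream end. The right panel gives its mean RPM over 11 leaf libraries in B73 and F1 on a log axis, where the 274-bp circRNA stands highest at 19.5 and 8.60 RPM and most others lie below 1.

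Summed over its circRNAs, Zm00001d044099 ranked 3 of 11678 hosts by mean leaf RPM in B73 and 9 of 11400 in F1. It held 1.34% to 4.0% of all circRNA RPM in a B73 leaf library, and 0.00987% to 1.90% in an F1 leaf library, the lowest being the husk leaf. Summed RPM in B73 leaves ranged from 13.2 in the base of the stage 2 leaf with suffix N to 44.9 in the ear leaf, with a median of 24.4. In F1 leaves it ranged from 0.333 in the husk leaf to 27.5 in the ear leaf, with a median of 13.1.

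All 9 B73 meristem and inflorescence libraries listed the gene's circRNAs at 0. In F1, 8 of the 9 did, and the SAM at V4 held 0.0539 RPM of the 2673-bp circRNA. Leaf exceeded the other class in every library of both lines, by a mean of 26.0 RPM in B73 and 13.6 RPM in F1. How many other hosts did so was not counted. The exact permutation test (two-sided, 11 against 9 libraries) gave p = 1.19e-05 in each line, the smallest it can give, or 2.98e-05 after Benjamini-Hochberg adjustment over 10 tests. The number of circRNAs above 0 per library was 11.3 ± 1.79 in B73 leaves (SD, n = 11) and 8.27 ± 2.72 in F1 leaves (SD, n = 11), with the same adjusted p by the exact permutation test. In the other 6 tissues only roots held any, at 0.145 RPM in the V1 root of B73 and at 0.152 and 0.0564 RPM in the 6DAS and V1 roots of F1.

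Of the single circRNAs, 10 of the 24 listed for B73 and 10 of the 18 listed for F1 passed the filter of a value above 0 in 5 libraries of the fit. All 10 were called higher in leaf in each line, where 6.62% of 6061 circRNAs were in B73 and 7.33% of 8760 in F1, and 33.3% and 38.6% were called lower. Each of them passed through its leaf libraries, so this count follows from the filter. Scaling by table total gave 588 higher and 1393 lower over all circRNAs in B73 and 943 and 2316 in F1, from 401 and 2019 and from 642 and 3380. The 274-bp circRNA ranged from 10.5 to 36.1 RPM in B73 leaves, median 20.5, and was listed at 0 in all 9 other libraries. In F1 leaves it ranged from 0.0624 to 17.8 RPM, median 8.46, and was again listed at 0 in the 9 others. The 2673-bp circRNA ranged from 0.412 to 6.42 RPM in B73 leaves, median 3.38, and from 0.208 to 5.41 in F1 leaves, median 3.07. Its groups did not overlap in either line, and the share of all circRNAs without such overlap was not counted. Of the 10 in each line, the weakest calls were lost when circRNAs above 0 in only 2 libraries were admitted, namely the 243-bp one in B73 (adjusted p = 0.0575) and the 3743-bp and 1293-bp ones in F1 (adjusted p = 0.0669 and 0.114; all limma).

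The circRNAs of the other genes stayed at the detection limit although their mRNA was high in leaf. Those of Zm00001d044096 summed to 0 in 8 of 11 B73 leaves and reached at most 0.126 RPM, in the third leaf. In F1 leaves they reached 0.213 RPM, in the tip of the stage 2 leaf with suffix N. One B73 meristem library, the SAM at V1, held 0.0687 RPM of the 337-bp circRNA Zmcirc049574. Those of Zm00001d044095 reached 0.153 RPM in the B73 husk leaf and 0.0909 RPM in the B73 V1 root, and none was listed for F1.

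Neither gene passed between leaf and meristem in summed RPM or in number, with adjusted p from 0.579 to 0.749 by the exact permutation test. For Zm00001d044096 in F1 and Zm00001d044095 in B73 only 2 libraries of these classes were above 0, all leaves. With so few, the test could not pass. For Zm00001d044096 in B73, 3 leaf libraries and 1 meristem library were above 0. No conclusion about a difference is drawn. For Zm00001d044096 in B73 the mean difference was 0.0176 RPM, and it turned to -0.00763 RPM without its most abundant circRNA.

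Suffix L and N separated Zm00001d044099 from its neighbours. In B73 its mRNA was 3457 in L and 1438 in N at the topmost leaf, 633 and 96.1 at the first leaf, 2635 and 382 at the tip of the stage 2 leaf, and 1438 and 758 at its base. In F1 the same positions had 4042 and 1587, 743 and 116, 1782 and 251, and 1701 and 214. L was higher in 8 of 8 pairs, although the L and N groups overlap when position is ignored.

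The log2 difference was 2.19 ± 0.27 (SE, 8 pairs; limma adjusted p = 0.000162). Of 13848 unpaired B73 genes tested, 17.7% were called higher in L and 23.7% lower. With values as deposited the split over all genes was 1547 higher and 4491 lower, from 2455 and 3284, and the median -0.19, from -0.06. The same 4 positions recur in both lines, so the 8 pairs are not all independent, and an exact sign-flip test over the 4 position means cannot go below p = 0.125, the value it gave. Within B73 alone the difference was 1.92 (limma adjusted p = 0.0218) and within F1 alone 2.46 (limma adjusted p = 0.00642).

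Zm00001d044096 was higher in L in 6 of 8 pairs, with a log2 difference of 0.35 ± 0.14 (limma adjusted p = 0.0710; limma unadjusted p = 0.0324). This did not pass after adjustment, and the difference became -0.22 after quantile normalization. Zm00001d044095 differed by 0.10 ± 0.13 (limma adjusted p = 0.554), with L higher in 7 of 8 pairs, and by -0.06 with values as deposited. Of the C4 list, 5 of 6 genes tested were called higher in L and none lower, with log2 differences from 0.44 to 3.17.

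Among the circRNAs, the 2673-bp one was higher in L, as its host mRNA was, and the 274-bp one did not pass the test. In B73 the 2673-bp circRNA had 6.42 RPM in L and 4.12 in N at the topmost leaf, 2.39 and 0.412 at the first leaf, 3.38 and 0.756 at the tip and 4.81 and 1.23 at the base of the stage 2 leaf. In F1 it had 5.41 and 3.51, 1.89 and 0.475, 3.07 and 0.239, and 3.60 and 0.459 RPM. Every L library was above its N partner.

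The 274-bp circRNA had 13.4 RPM in L and 12.9 in N at the B73 topmost leaf, 16.8 and 21.5 at the first leaf, 21.8 and 20.5 at the tip and 13.3 and 10.5 at the base. In F1 it had 5.49 and 9.05, 8.46 and 9.72, 7.49 and 8.32, and 8.42 and 10.4 RPM. L was higher in 3 of 8 pairs, all of them in B73.

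With limma, the 2673-bp circRNA was the only one called among the 2248 circRNAs tested, which is 0.0445% higher in L and 0% lower. Its log2 difference was 1.94 ± 0.25 (SE, 8 pairs; limma adjusted p = 5.47e-06). The call was lost when circRNAs above 0 in only 2 libraries were admitted (6479 tested; limma adjusted p = 0.337). It held within B73 alone at 1.74 (limma adjusted p = 0.000383) and within F1 alone at 2.14 (limma adjusted p = 3.39e-08). The 274-bp circRNA had a log2 difference of -0.16 ± 0.14 (limma adjusted p = 0.953), with a 95% interval from -0.44 to 0.13.

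The contrast between the pair was examined after their values were seen. The L to N difference of the 2673-bp circRNA exceeded that of the 274-bp circRNA in 8 of 8 pairs, by a mean log2 of 2.14 ± 1.00 (SD; exact sign-flip p = 0.00781 over 8 pairs, the smallest it can give). Over the 4 positions averaged between the lines the exact sign-flip p was 0.125, again the smallest possible. The ratio of 274-bp to 2673-bp RPM accordingly ran from 2.09 in the topmost leaf with suffix L to 52.2 in the first leaf with suffix N in B73.

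The other 10 circRNAs of the gene that were tested had log2 differences from -0.34 to 1.26, none called, and 1 of them passed an unadjusted p of 0.05. It was the 2496-bp Zmcirc037600, higher in L in 8 of 8 pairs (1.26 ± 0.36; limma adjusted p = 0.754). The 3 others tested that share the outermost upstream end with the 274-bp circRNA, of 897, 2596 and 3743 bp, had log2 differences of 0.09, 0.22 and 0.01.

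**Figure D3:**
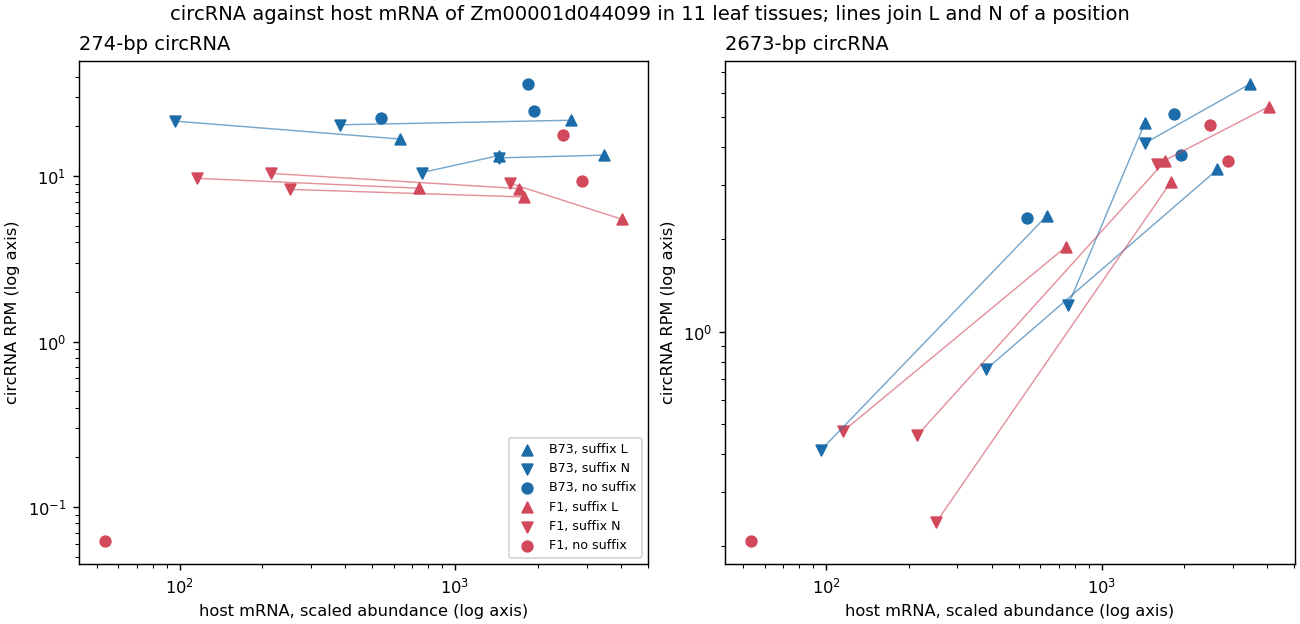
RPM of the 274-bp circRNA (left) and the 2673-bp circRNA (right) against scaled mRNA abundance of their host in the 11 leaf tissues of B73 and F1, on log axes, with lines joining L and N of a position. The right-hand points climb with the mRNA in every joined pair, and the left-hand points stay between 5.49 and 36.1 RPM except for the F1 husk leaf at 0.0624 RPM.

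Across leaves the same circRNAs differed in how they followed the host. In the 11 B73 leaves the mRNA spanned a 36-fold range, the 2673-bp circRNA a 15.6-fold range and the 274-bp circRNA a 3.43-fold range. In the 11 F1 leaves these ranges were 75.6-fold, 26-fold and 284-fold, and without the husk leaf 35-fold, 22.6-fold and 3.24-fold. The 2673-bp circRNA had a Pearson correlation with host mRNA of 0.846 and a Spearman correlation of 0.818 in B73 (n = 11), and 0.945 and 0.900 in F1, or 0.937 and 0.867 without the F1 husk leaf. Without the 2 leaves farthest from the median mRNA the Pearson values were 0.694 and 0.928.

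The 274-bp circRNA had correlations of 0.020 and 0.082 in B73 and of 0.197 and 0.009 in F1, or 0.358 and 0.341 (Pearson) without the 2 farthest leaves. Without the husk leaf the F1 values changed sign, to -0.061 and -0.321. The 897-bp circRNA had Pearson values of -0.334 in B73 and 0.116 in F1, and -0.120 in F1 without the husk leaf. The sparse 2496-bp circRNA, at most 0.333 RPM in B73, had 0.924 in B73 and 0.789 in F1, or 0.758 in F1 without the husk leaf. Points of 1 line share a library set and depth, and no pooled value over all 26 tissues is given because leaf and other tissues form separate clusters.

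The listed circRNA RPM of Zm00001d044099 was lower in F1 leaves than in B73 leaves, while the difference in its mRNA did not pass the test. None of its circRNAs has a Mo17 position, so the F1 values count junctions placed on B73 coordinates. Whether they include RNA of the Mo17 allele was not tested. The mRNA was higher in F1 in 7 of 11 leaf tissues, with a log2 difference of -0.38 ± 0.32 (SE; limma adjusted p = 0.456; 95% interval from -1.07 to 0.31). Without the husk leaf it was -0.09 (limma adjusted p = 0.812). Zm00001d044096 was lower in F1 in 8 of 11 tissues (-0.31 ± 0.12; limma adjusted p = 0.0911) and Zm00001d044095 in 7 of 11 (-0.15 ± 0.29; limma adjusted p = 0.760), the latter turning to 0.03 without the husk leaf. With limma, 0 of the 3 genes passed and 1 had an unadjusted p under 0.05, beside 8.91% called higher and 11.5% lower in F1 among 14901 genes.

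Summed circRNA RPM of Zm00001d044099 was 26.0 ± 8.07 in B73 leaves and 13.6 ± 6.26 in F1 leaves (SD, n = 11 each). F1 was lower in 11 of 11 tissues, although the ranges of the lines overlap. The mean difference was -12.4 RPM (exact sign-flip test over 11 tissues, p = 0.000977, the smallest it can give; 0.00293 after adjustment over 3 hosts). Without the husk leaf F1 was lower in 10 of 10 tissues, by a mean of -11 RPM (exact sign-flip p = 0.00195). Without the 274-bp circRNA F1 was lower in 9 of 11, by a mean of -1.55 RPM (exact sign-flip p = 0.00488). When only circRNAs above 0 in at least 2 libraries were summed, F1 was lower in 10 of 11 tissues and higher in 1 (exact sign-flip p = 0.00195).

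The lower sum came largely from the 274-bp circRNA. In B73 and F1 it had 36.1 and 17.8 RPM in the ear leaf, 24.9 and 9.41 in the third leaf and 10.5 and 10.4 in the base of the stage 2 leaf with suffix N. In the husk leaf it had 22.6 and 0.0624 RPM. F1 was lower in 11 of 11 tissues, least so in that leaf base and most so in the husk leaf.

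The log2 difference of the 274-bp circRNA was -1.58 ± 0.24 (SE; limma adjusted p = 9.24e-07), and -0.98 without the husk leaf (limma adjusted p = 1.34e-12). The limma call did not pass when circRNAs above 0 in only 2 libraries were admitted (adjusted p = 0.330). An exact sign-flip test, which does not depend on that filter, gave p = 0.000977 over 11 tissues and 0.00195 without the husk leaf, the smallest it can give in each case. For single circRNAs this test was not planned, was run only on the pair most abundant in B73 leaves, and was not adjusted. Its p-values do not replace the adjusted limma ones.

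The 2673-bp circRNA in B73 and F1 had 5.14 and 4.70 RPM in the ear leaf, 3.77 and 3.60 in the third leaf and 2.35 and 0.208 in the husk leaf. F1 was lower in 10 of 11 tissues (-0.66 ± 0.20; limma adjusted p = 0.0361; unplanned and unadjusted exact sign-flip p = 0.00488). Without the husk leaf the value was -0.41 and did not pass (limma adjusted p = 0.149), and the unadjusted exact sign-flip p was 0.00977. The limma call was also lost with a pseudocount 10 times larger (-0.41; adjusted p = 0.119) and when circRNAs above 0 in 2 libraries were admitted (adjusted p = 0.413).

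The log2 F1 to B73 difference of the 274-bp circRNA was lower than that of the 2673-bp circRNA in 9 of 11 tissues, by a mean of 0.92 ± 1.43 in size (SD; exact sign-flip p = 0.0322). Without the husk leaf the difference was 0.57 ± 0.85 in size, in 8 of 10 tissues, and did not pass (exact sign-flip p = 0.0645). This comparison was added after the values were seen.

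Of the 32 circRNAs of the 3 genes, 14 passed the filter in this comparison, 3 were called lower in F1 and 0 higher. Of all 3091 circRNAs tested, 2.98% were called lower and 2.81% higher, with a median log2 difference of -0.07 against -0.50 over the 14. The third one called was the 2596-bp Zmcirc037604 (-1.08 ± 0.34; limma adjusted p = 0.0396), which did not pass without the husk leaf (limma adjusted p = 0.0776) or with circRNAs above 0 in 2 libraries (limma adjusted p = 0.340). The 2018-bp Zmcirc047121 had the largest value in the other direction, 1.14 ± 0.40 (limma adjusted p = 0.0798). It was above 0 in 4 of 11 B73 leaves, where it reached 1.95 RPM, and in 9 of 11 F1 leaves, where it reached 2.16 RPM, both in the topmost leaf with suffix L. Scaling by table total moved the median over all circRNAs to -0.27 and the calls to 78 higher and 220 lower, from 87 and 92. The 274-bp circRNA then stood at -2.0 (limma adjusted p = 9.07e-07), the 2496-bp one turned from 0.10 to -0.27, and the 871-bp and 897-bp ones also passed as lower (limma adjusted p = 0.0232 and 0.0340).

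**Figure D4:**
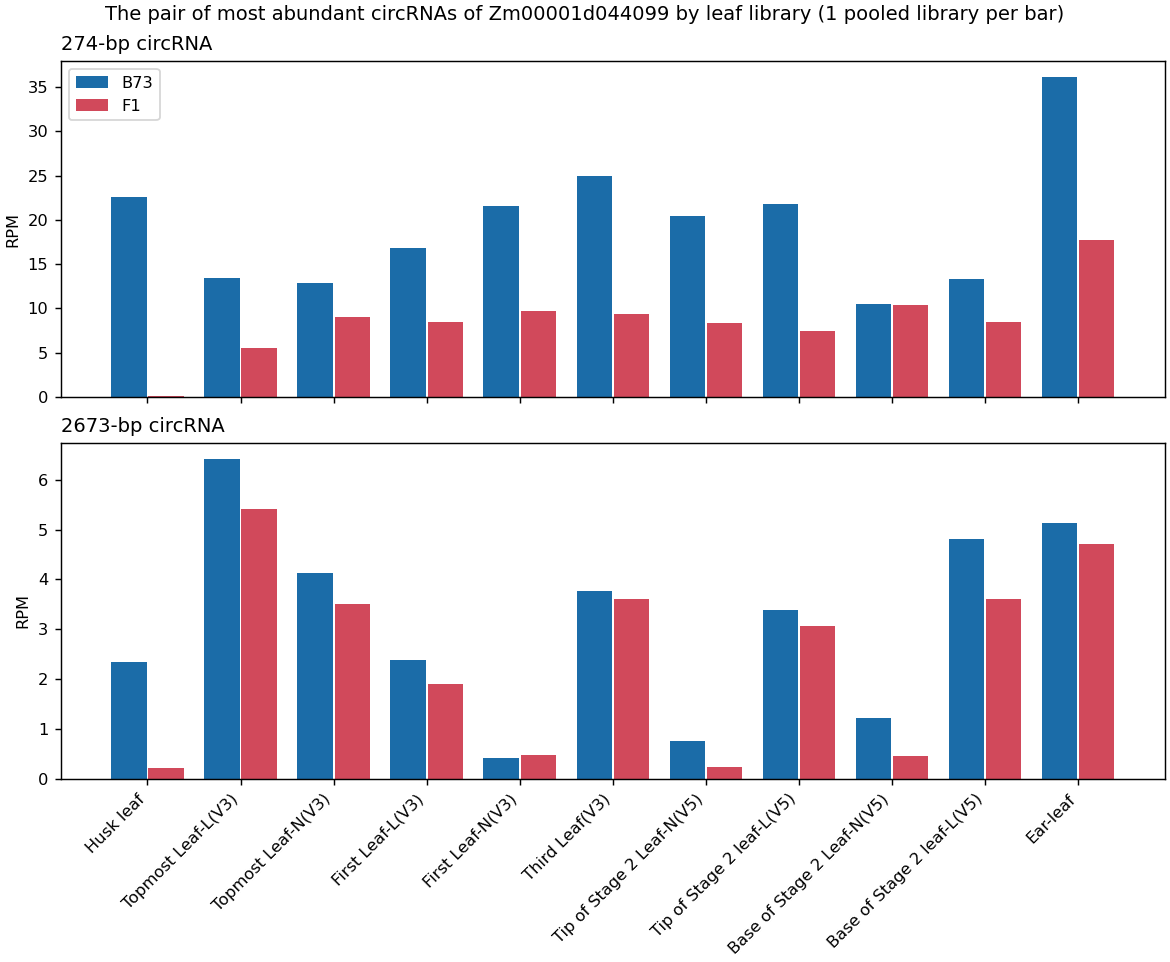
RPM of the 274-bp circRNA (top) and the 2673-bp circRNA (bottom) in each of 11 leaf tissues, with 1 bar per pooled library of B73 or F1. F1 is below B73 for the 274-bp circRNA in every tissue, and L bars exceed N bars for the 2673-bp circRNA at every position.

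**Figure D5:**
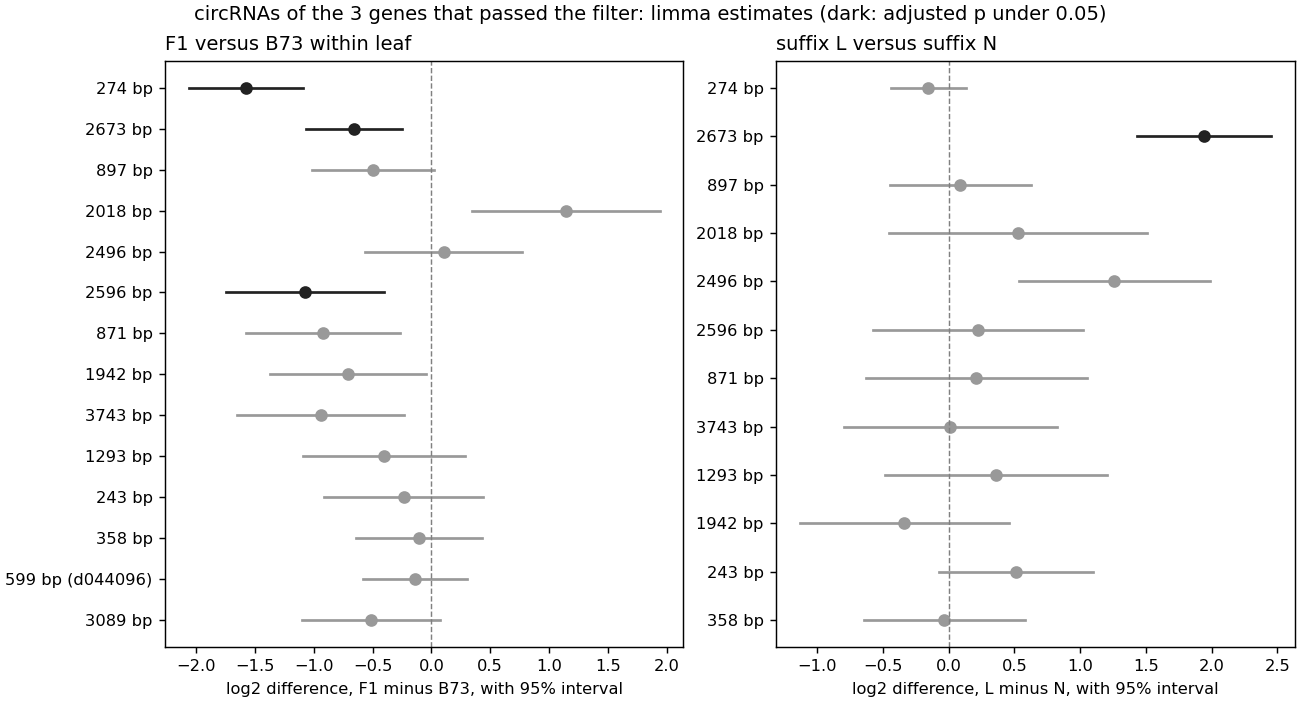
Log2 differences with 95% intervals from limma for the circRNAs that passed the filter, F1 minus B73 within leaf (left, 14 circRNAs) and L minus N (right, 12 circRNAs), ordered by mean RPM in F1 or in L. Dark points have an adjusted p under 0.05, which are the 274-bp, 2673-bp and 2596-bp circRNAs on the left and the 2673-bp circRNA on the right.

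Tip and base of the stage 2 leaf were compared in 4 pairs, L and N of B73 and F1. Zm00001d044099 mRNA in tip and base was 2635 and 1438 in B73 L, 382 and 758 in B73 N, 1782 and 1701 in F1 L, and 251 and 214 in F1 N. The tip was higher in 3 of 4 pairs, and the direction of B73 N went against the others. The log2 difference was 0.05 ± 0.31 (limma adjusted p = 0.937), and it took the other sign with values as deposited (-0.33) and after quantile normalization (-0.16). With limma, 0 of the 3 genes passed and 0 had an unadjusted p under 0.05, beside 11.4% of 12793 genes called higher in the tip and 8.47% lower. With values as deposited the split over all genes was 786 higher and 3504 lower, from 1457 and 1083, and the median -0.25, from 0.05. Zm00001d044096 stood at -0.26 ± 0.18 (limma adjusted p = 0.370), which passed as lower in the tip with values as deposited (-0.63; adjusted p = 0.0313) and after quantile normalization (-0.46; adjusted p = 0.0456).

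The 274-bp circRNA in tip and base had 21.8 and 13.3 RPM in B73 L, 20.5 and 10.5 in B73 N, 7.49 and 8.42 in F1 L, and 8.32 and 10.4 in F1 N. The tip was thus higher in both B73 pairs and lower in both F1 pairs. The 2673-bp circRNA was lower in the tip in 4 of 4 pairs, at 3.38 and 4.81, 0.756 and 1.23, 3.07 and 3.60, and 0.239 and 0.459 RPM. With limma, 0 of the 9 circRNAs tested passed and 0 had an unadjusted p under 0.05, beside 0.397% of 1008 circRNAs called higher in the tip and 1.59% lower. Scaling by table total changed the split over all circRNAs from 4 higher and 16 lower to 7 and 15.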

How the data were processed

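The mRNA and circRNA tables were used as deposited by the authors. The circRNA values, as deposited by the authors, were read as RPM from their size and steps, since no source used here names the unit. The position list names circexplorer2 per the file headers. Among tools, SAMtools, TopHat, StringTie and HISAT are in the submitters' processing notes without roles or versions, as is the build B73 RefGen_v4. The B73 and F1 mRNA values, as deposited, are in a unit not given in the sources used here. Of the values of unpaired genes, 98.6% in B73 and 98.6% in F1 lay on the grid that means of 3 numbers give (within 0.01 of a step), so a value may be such a mean. The Mo17 mRNA columns, deposited as TPM to judge by their sums, were read only for the unit check and for the alternative scaling on paired genes. The linear and back-splice read counts of 1 total RNA table, deposited by the authors, were used for a single value. The members and lists were chosen with earlier results of these data known.

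In F1, genes paired between the genomes ran at a median of 1.28 times B73 and unpaired genes at 1.00. The fixed design scaled on paired genes. Because of this difference libraries were scaled instead by their median ratio over 6158 unpaired genes at 1 or more in all 52 libraries, and scaling on 3695 paired genes was kept as an alternative. Factors ran from 0.475 to 2.03. Missing circRNA rows counted as 0.

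Differences were fitted with limma 3.58.1 in R 4.3.3 (mean-variance trend, Benjamini-Hochberg adjustment over the whole table, threshold 0.05). For mRNA the fits used log2 of the scaled values plus 1, for genes at 1 or more scaled units in 3 libraries. For circRNA they used log2 of the values as deposited plus the smallest value above 0, for circRNAs above 0 in 5 libraries. Lines were compared with the tissue as a block, L with N and tip with base with the pair as a block, and the pairing comes from the labels. The fits across lines used the unpaired B73 features, since no member has a Mo17 partner, in place of the comparisons with Mo17. Exact permutation and sign-flip tests, two-sided, used SciPy and Python. The code was tested on simulated data. Named were the members, their circRNAs above 0 in 5 leaf libraries (at most 10 per line) with the shortest and longest, and the 5 genes nearest by Spearman correlation; other circRNAs were named after their values were seen. Reads shared by similar gene copies cannot be told apart in these values. No sequences are shown, since none were supplied for this build.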

Additional observations from a re-analysis of the deposited data

Results flagged for a closer look

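Values far from the others of their group, by Dixon's criterion, were sought in 37 groups of 4 to 9 libraries, and 14 were found. The criterion flags every group with a single value above 0, so this number cannot be set against a chance rate. Most are single values above a row of 0. For summed circRNA RPM of Zm00001d044099 they were 0.145 in the B73 V1 root, 0.152 in the F1 6-day root and 0.0539 in the F1 SAM at V4. For Zm00001d044096 they were 0.0687 in the B73 SAM at V1, 0.0788 and 0.0811 in the first leaf with suffix L of B73 and F1, and 0.0731 and 0.213 in the tip of the stage 2 leaf with suffix N of B73 and F1. The first leaf with suffix L and the tip with suffix N recur in both lines, and the SAM at V1 was above 0 in B73 alone of these lines. For Zm00001d044095 it was 0.0909 in the B73 V1 root.

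For mRNA they were Zm00001d044099 in the F1 SAM at V1, at 0.936 scaled units with the nearest library at 0.450, and in the F1 topmost leaf with suffix N, at 1587 with the nearest of 4 N leaves at 251. Zm00001d044096 stood at 1.87 in the F1 SAM at V1, with the nearest at 1.01. Zm00001d044095 stood at 0.294 in the B73 1 cm ear, with the nearest at 0.0726, and at 51.8 in the B73 V1 root, with the nearest, the other root, at 13.2.

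Tip and base of the stage 2 leaf went opposite ways in B73 and F1 for 2 measures, a difference that was not tested. Summed circRNA RPM of Zm00001d044099 was higher in the tip by a mean of 9.15 in B73 and differed by -2.01 in F1, 11.2 RPM apart. Zm00001d044095 mRNA was higher in the tip by 12.1 scaled units in B73 and differed by -7.30 in F1, 19.4 apart.

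A total RNA table, outside the comparisons, held 5 linear counts of Zm00001d044099, 2 of Zm00001d044096 and 0 of Zm00001d044095 among 1134385 gene counts. It held no back-splice read of any, among 13426 in all. Since 98.9% of its linear counts were assigned to no gene, these low values say little. The table's name says 1 cm tassel and the label of the total RNA sample 1 cm ear, so its organ is uncertain.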

How the results depend on the processing

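Of 509 alternative values for 93 results, 450 counted as unchanged. A single feature or host counted so when it kept direction and side of the threshold. A number of calls counted so when its total stayed of similar size, even where the split between higher and lower moved. The unchanged values include each alternative run for the leaf to meristem difference in mRNA of the 3 genes and for the L to N difference of Zm00001d044099 mRNA. All values are log2 differences or numbers of features called by limma unless said otherwise.

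Pairing by tissue or position comes from the labels. Without this replicate block, calls numbered 835 (3049 with it) for mRNA between F1 and B73, 2399 (5739) for mRNA between L and N, 927 (2540) for mRNA and 6 (20) for circRNA between tip and base, and 106 (179) for circRNA between F1 and B73. The 2673-bp circRNA then had an adjusted p of 0.464 between F1 and B73 and the 2596-bp one of 0.134, while the 274-bp one (0.000267), and the L to N calls of Zm00001d044099 mRNA (0.0189) and of the 2673-bp circRNA (0.00689), still passed.

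Admitting circRNAs above 0 in 2 libraries gave 76 calls between F1 and B73, 0 between L and N and 0 between tip and base, with more circRNAs tested in each. It also turned the summed RPM difference of Zm00001d044096 between the lines to -0.0106. Scaling by table total gave 298 calls between F1 and B73 and turned the 2496-bp circRNA to -0.27. Without its most abundant circRNA, Zm00001d044096 in B73 had leaf minus meristem differences of -0.00763 RPM and -0.111 circRNAs.

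Between L and N, only B73 gave 2346 mRNA calls and only F1 2432, and only F1 gave 4 circRNA calls (main 1). With only B73, Zm00001d044095 mRNA was -0.066 and the 274-bp circRNA 0.031. With only F1, the 871-bp circRNA was -0.013, the 897-bp one -0.18 and the 2018-bp one -0.96. Values as deposited gave -0.062 for Zm00001d044095 and quantile normalization -0.22 for Zm00001d044096. Without the husk leaf Zm00001d044095 mRNA was 0.033 between the lines.

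Tip and base were compared in 4 pairs. No filter on low values gave 1486 mRNA calls and values as deposited 4290. As deposited, Zm00001d044099, Zm00001d044096 and Zm00001d044095 were at -0.33, -0.63 and -0.26, and after quantile normalization at -0.16, -0.46 and -0.033. Leaving out each pair in turn gave 1561 mRNA calls (without B73 L), 1209 (B73 N), 1796 (F1 L) and 1599 (F1 N), and 6, 14, 12 and 6 circRNA calls. It took Zm00001d044099 to -0.23 without the B73 L pair and to -0.016 without the F1 N pair, and Zm00001d044095 to -0.29 without the B73 L pair. It took the 871-bp circRNA to 0.27 without the B73 N pair and 0.057 without the F1 N pair, and the 897-bp and 1293-bp ones to -0.10 and -0.43 without the B73 N pair. For these reversals the cause was not tested.

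Comparisons with Mo17, and the alternative without Mo17 tip libraries, were not run, since no member has values there. Single pooled libraries leave variation between plants unmeasured, and circRNAs near the smallest RPM of a library are at the limit of detection.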
